A study of Mus musculus with 5 samples.

Results

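The interleukin and interleukin-receptor genes of the mouse liver were described across its non-parenchymal cells. They were taken by symbol, as every gene column that begins with Il and a digit, which gave 74 of the 19736 genes in the 5 deposited tables. Of these, 57 had a column in all 5 tables, 71 had at least 1 molecule in the retained cells and 52 had at least 50. Columns for Il17c, Il1rapl2 and Il20 held 0 molecules among 91224166 retained molecules, which allows a level of up to 0.0329 CPM (counts of a gene in every 1000000 molecules; from 3 counts of the total, for counting error only). Il13 had no column and was not analysed here. The symbol rule also takes in Il4i1, an enzyme gene, and the binding protein and antagonist genes Il18bp and Il1rn.

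The cells came from livers of wild-type male mice that had surgery at 9 weeks of age and were sampled 2 weeks later. Partial inferior vena cava ligation (pIVCL), a mouse model of congestive hepatopathy, was compared with a sham operation. Sham 1, sham 2 and pIVCL 1 carried the batch label 2021.3, and pIVCL 2 and pIVCL 3 carried 2021.7, and within a batch only pIVCL 1 has sham libraries beside it. Hepatocytes, dead cells and erythrocytes had been depleted before capture. No label states that the libraries came from separate animals, and p-values therefore reflect spread among libraries that may be technical.

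Interleukins are secreted signals, and a cell's response to them depends on which receptor chains it makes. Several receptors share a chain: Il6st encodes gp130, used by the IL-6, IL-11 and IL-27 receptors, and Il2rg encodes the common gamma chain. Some members restrain signalling, among them the receptor antagonist Il1rn, the IL-18 binding protein Il18bp and the IL-13 decoy receptor Il13ra2. In the liver, Kupffer cells are the resident macrophages, sinusoidal endothelial cells line the blood channels, and stellate cells are the perisinusoidal fibre-forming cells.

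The 16672 retained cells (2523 to 4308 a library) formed 34 clusters, 25 of which were assigned to 13 cell classes by marker genes. Members were left out of the genes used for clustering. Retained cells had medians of 2888 to 5400 molecules, lowest in pIVCL 3, and libraries shared 8 to 30 cell indexes in pairs. Hepatocyte-list molecules were higher in all 3 pIVCL libraries than in sham in endothelial, Kupffer and stellate cells (in Kupffer cells 0.128 and 0.106% of molecules in sham, 0.169, 0.226 and 0.217% in pIVCL), and their part in the results was not tested.

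All members together made up 0.255 and 0.264% of the molecules in sham 1 and sham 2 and 0.247, 0.225 and 0.257% in pIVCL 1, 2 and 3. The groups overlapped. Il6st alone held 76441 of the 228325 member molecules (33.5%), Il18bp held 10.3% and Il10rb, the second chain of the IL-10 receptor, held 8.02%. Levels are given in CPM, which relate the molecules of a gene to all molecules of a class in a library, after scaling between libraries; those of single clusters or of selected cells are not scaled. Each molecule is counted once at the transcript end, so levels do not scale with gene length.

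Among the IL-1 family ligands, Il1a and Il1b lay in different cells. Il1a, the alarmin form of IL-1, had 9831 of its 13870 molecules (70.9%) in endothelial cells, at a mean of 191.1 CPM over the 5 libraries, against 107.3 in Kupffer cells and 0 to 43.6 in the other 11 classes. Il1b, which needs proteolytic release, had 70.1% of its molecules in Kupffer cells (304.7 CPM) and was at 1.94 CPM in endothelial cells. Neutrophils, which had at least 10 cells only in the pIVCL libraries, held Il1b at 33.3, 49.4 and 1027 CPM, and also 117 of the 131 molecules of Il1f9, which encodes IL-36 gamma. Il1rn was at 109.3 CPM in neutrophils, 77.0 in monocytes and 51.8 in Kupffer cells.

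Il33, a nuclear alarmin, was highest in mesothelial cells (129.0 and 111.3 CPM in sham, 117.0, 151.1 and 64.4 in pIVCL), then in stellate cells and fibroblasts (37.6) and endothelial cells (34.9). Its receptor gene Il1rl1 had 123 molecules in all, and 23 of them were in a single B cell of sham 1. Il18 was highest in mesothelial cells (201.7 CPM) and Kupffer cells (119.2). Il18bp, which binds and neutralises IL-18, was concentrated in Kupffer cells with 17302 of 23486 molecules (904.5 CPM, and at most 34.0 in any other class). The IL-18 receptor genes Il18r1 and Il18rap were at 224.1 and 156.5 CPM in natural killer (NK) cells and group 1 innate lymphoid cells (ILC1), and mesothelial cells carried Il18r1 (222.1 CPM) with 0 CPM of Il18rap.

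The IL-1 receptor gene Il1r1 was highest in stellate cells and fibroblasts (173.4 CPM), followed by endothelial cells (66.8), and was at 1.47 CPM in Kupffer cells. Its decoy Il1r2 was at 67.9 CPM in neutrophils and 0 to 6.97 elsewhere. Il1rap, the shared accessory chain, was at 42.4 CPM in hepatocytes and at 0 to 12.9 in every other class. The hepatocyte level rests on 10 molecules in sham 1 and 3, 2 and 15 in pIVCL 1, 2 and 3. Sham 2, with 4 hepatocytes, was left out of it. Endothelial cells held 142 of the 419 Il1rap molecules (33.9%), the largest share of any class.

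In the IL-6 family, ligand and receptor chains were spread over different classes. Il6 itself had 243 molecules, 183 of them in Kupffer cells, and endothelial cells held 2 molecules. The ligand-binding chain Il6ra was highest in monocytes (627.7 CPM) and Kupffer cells (351.1) and was at 5.44 in endothelial cells, whereas Il6st was at 1488 in endothelial cells, 828.6 in stellate cells and fibroblasts and 61.1 in Kupffer cells. Il11ra1, the IL-11 receptor, was highest in stellate cells and fibroblasts (250.3 CPM) and mesothelial cells (211.3), and its ligand gene Il11 had 10 molecules. The IL-27 subunit Il27 was at 15.0 CPM in Kupffer cells, and its receptor Il27ra at 74.0 in T cells and 17.6 in endothelial cells.

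Of the IL-10 family, Il10 was found with 145 of 247 molecules in Kupffer cells, and 97 were in clusters that stayed unnamed. Il10ra was at 142.0 CPM in monocytes, 118.9 in Kupffer cells and 0.542 in endothelial cells, whereas Il10rb ranged from 7.20 CPM in hepatocytes to 372.4 in Kupffer cells. The IL-22 receptor Il22ra1 had 3 molecules.

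Among lymphocyte receptors, Il2rb, shared by IL-2 and IL-15, was at 2557 CPM in NK cells and ILC1 and 1965 in T cells, and at most 11.9 in any other class. Il2rg was at 700.1 CPM in T cells and 498.9 in B cells, and Il2ra was at 164.3 in T cells. Il7r was at 710.3 CPM in T cells and 352.3 in plasmacytoid dendritic cells, while Il7 had 61 molecules in all. Il15 was highest in Kupffer cells (60.6 CPM), and its presenting receptor Il15ra was at 40.0 in hepatocytes and 1.03 to 19.3 in the other classes. The hepatocyte level of Il15ra rests on 7 molecules in sham 1 and 2, 3 and 19 in pIVCL 1, 2 and 3. Il21r was at 111.0 to 119.5 CPM in plasmacytoid dendritic cells, B cells, NK cells and ILC1, and T cells. Il12rb1 and Il12rb2, the IL-12 receptor chains, were highest in NK cells and ILC1 at 25.9 and 73.2 CPM.

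Transcripts of the type 2 and type 17 ligands were few. Il4 had 49 of 66 molecules in T cells, all in cluster 12, which Cxcr6 leads, whereas Il5 had 2, Il17a 4, Il17f 3 and Il23r, the IL-23 receptor, 5 molecules in the whole data set. The IL-23 subunit Il23a had 72 molecules, and Il12a, the IL-12 subunit p35, had 23 of 30 in B cells, 17 of them in pIVCL 3. Their receptors were broad: Il4ra lay between 40.2 and 104.2 CPM in 9 of the 13 classes, and Il17ra was above 80 CPM in all 8 immune-cell classes and highest in monocytes (342.2). Il13ra1 was at 70.6 CPM in monocytes and 68.3 in endothelial cells, Il3ra was highest in endothelial cells (62.6), and Il16, a ligand of CD4, in B cells (110.8). Molecules of Il2, a T-cell growth factor, were seen in all 13 classes at 1.15 to 24.1 CPM, including 7.93 in endothelial cells and 12.5 in stellate cells and fibroblasts, so no cell type is read as a source.

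**Figure D1:**
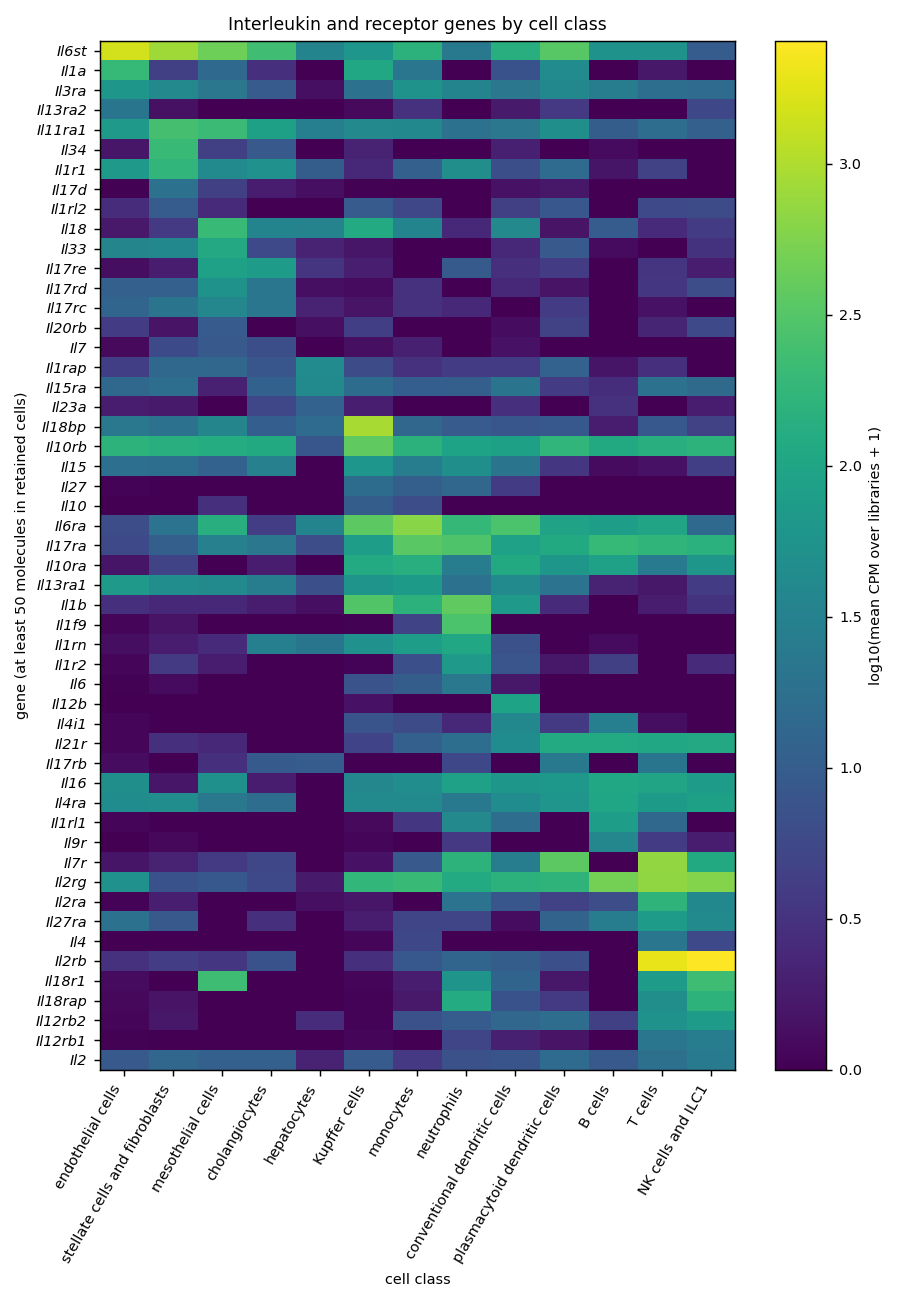
Mean level of each of the 52 members with at least 50 molecules (rows) in the 13 cell classes (columns), as log10 of the mean CPM over libraries with at least 10 cells of the class, plus 1. Il6st is brightest in endothelial cells, Il18bp in Kupffer cells, Il34 in stellate cells and fibroblasts and Il2rb in T cells and in NK cells and ILC1.

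The effect of ligation was tested in the 7 classes with at least 20 cells in every library. Molecules were summed per class and library and compared with edgeR's quasi-likelihood test, and p-values were adjusted by Benjamini-Hochberg over all genes tested in the class. Of the 74 members, 44 passed the filter on low counts in at least 1 class. Of the 126 member and class pairs tested, 3 rose and 7 fell at an adjusted p under 0.05, beside 2.37% of all 47899 gene and class pairs. B cells, plasmacytoid dendritic cells, neutrophils, cholangiocytes, hepatocytes and mesothelial cells had too few cells in a library.

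**Figure D2:**
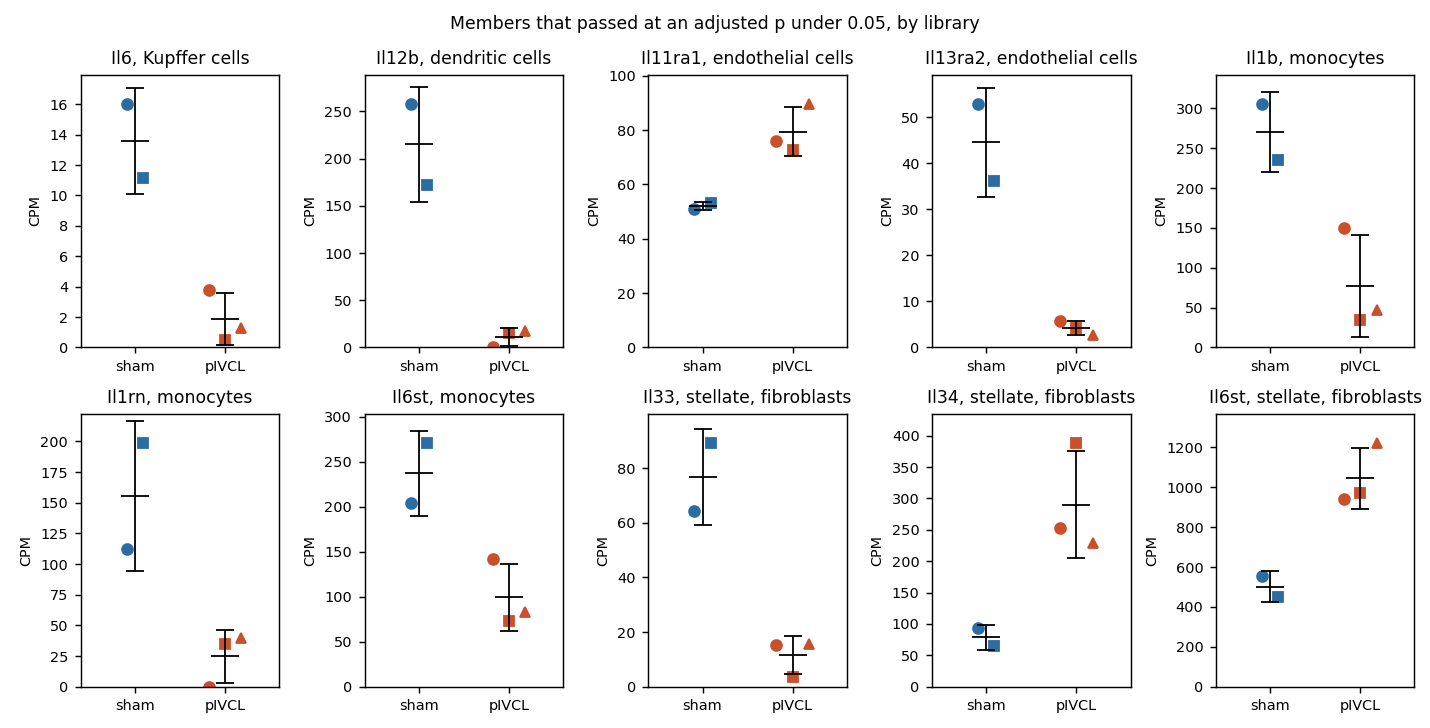
CPM of the 10 member and class pairs that passed, 1 point for each library (circle, square and triangle for replicates 1, 2 and 3), with the group mean and SD in black. In every panel the sham and pIVCL libraries do not overlap, and pIVCL 1 is the pIVCL library nearest to sham for Il6, Il13ra2, Il1b and for Il6st in both of its classes. In the classes shown, 25.2 to 44.3% of all genes tested had no overlap.

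In endothelial cells, the decoy receptor Il13ra2 fell and the IL-11 receptor Il11ra1 rose, and 24 further members tested did not pass. Of all 11173 genes tested, 6.31% were called (3.23% higher and 3.08% lower in pIVCL), and the median log2 fold change was -0.11 over the 26 members and 0.01 over all genes. Il13ra2 was at 52.9 and 36.2 CPM in sham and at 5.77, 4.26 and 2.63 CPM in pIVCL. Both sham libraries were above all 3 pIVCL libraries (44.3% of all genes tested had no overlap between groups), and the means of 44.5 ± 11.8 (SD, n = 2) and 4.22 ± 1.57 (n = 3) differed 10.6-fold. The log2 fold change was -3.32 ± 0.27 (SE, adjusted p = 0.000731), and within batch 2021.3 it was -2.97.

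Il13ra2 was almost confined to endothelial cells, with 1242 of 1343 molecules there, and it differed between their clusters. Sham cells of clusters 1, 2, 6 and 8 held it at 57.7, 39.0, 55.7 and 54.3 CPM, but sham cells of clusters 0 and 3 held 0 and 1 molecules. Clusters 0 and 3, which both have Esm1 among their leading genes, contained 156 of 2688 and 132 of 2338 endothelial cells in sham and 1032 of 1518, 1529 of 1649 and 631 of 691 in pIVCL. Within cluster 1, the best filled of the clusters that carried the gene in both groups, the level was 57.7 CPM over 1450 sham cells and 26.9 over 282 pIVCL cells, of which 236 were of pIVCL 1. A change within clusters was not tested. The 250 bases upstream of the Il13ra2 start (RefSeq, GRCm38.p6, chrX:147429193-147429442, minus strand) are shown because this gene had the larger fold of the endothelial members that passed, with matches in capitals to the AP-1 motif TGANTCA and the C/EBP motif TTGNGNAA, searched on both strands.
Il13ra2: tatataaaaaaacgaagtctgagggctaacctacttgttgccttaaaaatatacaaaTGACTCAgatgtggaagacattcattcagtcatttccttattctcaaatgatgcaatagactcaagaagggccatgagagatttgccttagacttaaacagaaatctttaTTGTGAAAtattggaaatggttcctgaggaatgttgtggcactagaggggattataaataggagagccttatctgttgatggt
The AP-1 letters occurred in 6.75% of the 32851 promoters of the table and in 14 of 76 promoter entries of 61 members, and the C/EBP letters in 11.7% and in 15 of 76. A match of letters is a description and not a binding site.

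Il11ra1 was at 51.1 and 53.1 CPM in sham and at 75.9, 72.6 and 89.7 CPM in pIVCL, a log2 fold change of 0.60 ± 0.14 (adjusted p = 0.0371). The groups did not overlap, as was so for 44.3% of all genes tested in endothelial cells. The change within batch 2021.3 was 0.52. The call was lost when sham 1 (adjusted p = 0.316), sham 2 (0.25), pIVCL 2 (0.0649) or pIVCL 3 (0.104) was left out. Il11ra1 has a near-identical neighbouring copy, Il11ra2, which had no column, so its counts may mix copies.

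Il1a had the largest fold among the endothelial members that did not pass, at 254.6 and 356.6 CPM in sham and 175.1, 91.6 and 77.7 CPM in pIVCL (log2 fold change -1.40 ± 0.34, adjusted p = 0.0635). All 3 pIVCL libraries were below sham, and pIVCL 1 was nearest. Without pIVCL 1, 7 endothelial members passed, among them Il1a, Il4ra, Il15 and Il2, but 24.1% of all genes tested were then called. In that fit all sham libraries were of batch 2021.3 and all pIVCL libraries of 2021.7, so ligation and batch cannot be told apart. Il4ra, shared by the IL-4 and IL-13 receptors, was at 61.7 and 48.9 against 39.7, 41.8 and 32.7 CPM (-0.53 ± 0.16, adjusted p = 0.0875). Il6st was at 1303 and 1452 against 1614, 1397 and 1673 CPM, and the groups overlapped (0.18 ± 0.14, adjusted p = 0.462). Il10rb was at 141.9 to 146.8 CPM in sham and 154.1 to 183.5 in pIVCL (adjusted p = 0.338), and Il33, Il1r1, Il3ra, Il27ra, Il2rg, Il16 and Il13ra1 overlapped between groups. Il17rc and Il17rd, receptor chains of the IL-17 family, were at means of 13.6 and 10.01 CPM in sham and 10.6 and 10.3 in pIVCL.

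Large-vessel endothelial clusters 13 and 25, which carry Vwf, differed from the sinusoidal ones in several members. In sham cells, Il33 was at 165.4 and 112.0 CPM in these clusters and at 0 to 70.5 in the other 6. Il4ra was at 136.0 and 169.3 against 19.3 to 56.5, and Il1r1 reached 218.8 in cluster 25. Il1a was lowest in cluster 25, at 26.1 CPM in sham and 3.02 in pIVCL. Without these clusters Il13ra2 changed by -3.40 on the log2 scale (adjusted p = 0.000654) and Il11ra1 by 0.58 (0.0371).

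**Figure D3:**
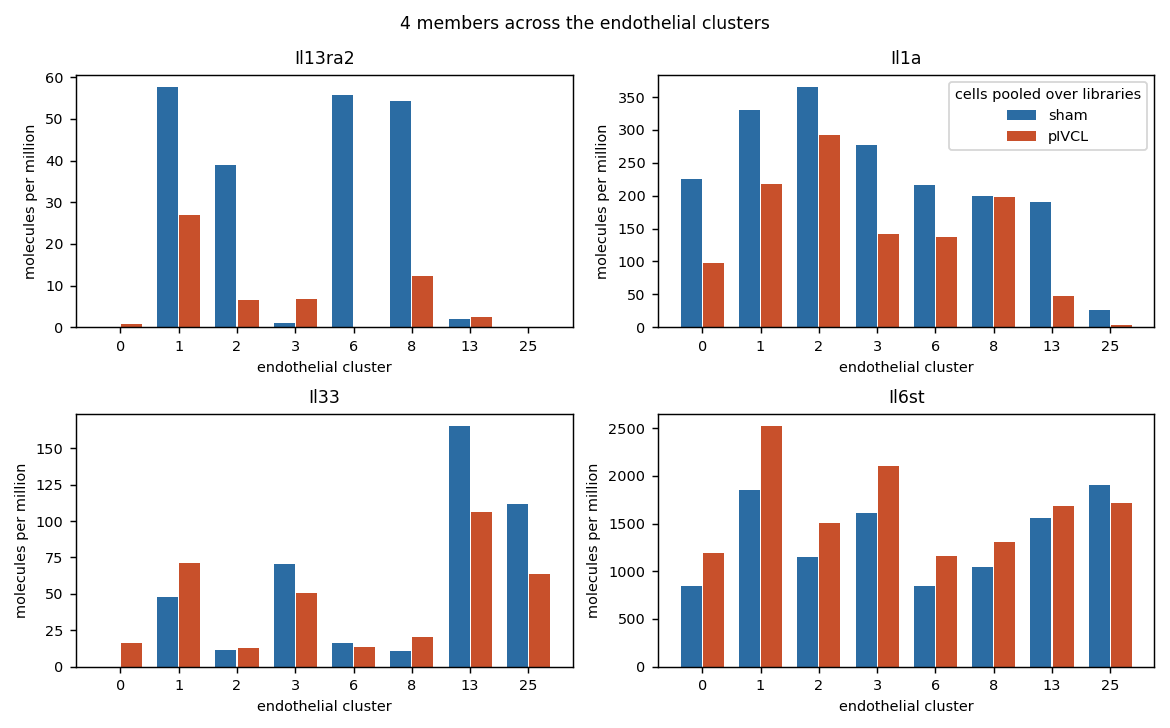
CPM of Il13ra2, Il1a, Il33 and Il6st in the 8 endothelial clusters, with sham cells (blue) and pIVCL cells (red) pooled over libraries. Il13ra2 is between 0 and 6.76 in clusters 0, 3, 13 and 25 in both groups, and Il33 is highest in clusters 13 and 25 in sham.

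In Kupffer cells, Il6 fell and none of the other 25 members tested passed. Of 9707 genes tested, 0.505% were called (0.278% higher and 0.227% lower), and the median log2 fold change was 0.14 over members and 0 over all genes. Il6, the ligand that acts through Il6ra and gp130, was at 16.03 and 11.1 CPM in sham (124 and 49 molecules) and 3.79, 0.517 and 1.28 CPM in pIVCL (6, 1 and 3 molecules). Sham lay above pIVCL in every library, with means of 13.6 ± 3.46 (SD, n = 2) and 1.86 ± 1.71 (n = 3). The log2 fold change was -2.97 ± 0.49 (SE, adjusted p = 0.0269).

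The Il6 molecules of sham were spread over 75 of 811 and 32 of 535 Kupffer cells, with at most 10 in a cell. Of the 173 sham molecules, 167 were in cluster 4, led by Fabp7, Gbp2b and Timd4, which held 1169 sham cells but 149, 17 and 7 cells of pIVCL 1, 2 and 3. Most Kupffer cells of pIVCL 2 and pIVCL 3 were in cluster 5, led by Cxcl13, where Il6 had 2 molecules in 129 sham cells and 4 in 702 pIVCL cells, too few to compare. Within cluster 4 the pIVCL molecules were 5, all of pIVCL 1, so a change within the cluster could not be assessed over the pIVCL libraries. The change was -1.86 within batch 2021.3 (adjusted p = 0.0717), and the call was lost without sham 1 (0.289), pIVCL 2 (0.14) or pIVCL 3 (0.118), and when the mixed cluster 11 was added (0.386).

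The upstream bases of Il6 (RefSeq, GRCm38.p6, chr5:30012864-30013113, plus strand) are shown because Il6 was the 1 Kupffer member that passed and its promoter holds matches to 3 of the 4 motifs searched.
Il6: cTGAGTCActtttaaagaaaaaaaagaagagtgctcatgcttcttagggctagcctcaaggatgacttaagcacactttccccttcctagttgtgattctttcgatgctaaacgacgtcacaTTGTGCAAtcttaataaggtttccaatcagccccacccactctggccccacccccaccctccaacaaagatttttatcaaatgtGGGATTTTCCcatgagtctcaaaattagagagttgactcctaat
The capitals mark, from left to right, AP-1 from base -249 of the start, C/EBP from base -128 and NF-kB from base -44, the last searched as GGGA and TTTCC with any 1 base between them. The NF-kB letters occurred in 0.356% of all promoters and in 2 of 76 member entries. The STAT letters TTCNNNGAA, in 7.02% of all promoters and 8 of 76 member entries, were not in this window.

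The IL-1 ligands of Kupffer cells were lower in each pIVCL library but did not pass. Il1b was at 414.6 and 456.0 CPM in sham and 257.3, 88.4 and 307.1 CPM in pIVCL (log2 fold change -0.998 ± 0.573, adjusted p = 0.494). In cluster 4 it was at 457.0 CPM in sham and 266.7 in pIVCL, and in cluster 5, which held most cells of pIVCL 2 and pIVCL 3, at 202.7 and 211.1. Il1a was at 169.1 and 137.9 against 130.8, 50.7 and 47.9 CPM (-1.04 ± 0.49, adjusted p = 0.408), and its groups did not overlap. Il1rn was at 60.9 and 63.9 against 40.5, 45.5 and 48.3 CPM (adjusted p = 0.191), and Il18bp at 1035 and 1034 against 905.2, 761.1 and 787.1 CPM (adjusted p = 0.25). These 4 members did not overlap between groups, as did 32.4% of all genes tested in Kupffer cells.

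Higher in each pIVCL library without passing were Il16 (27.7 and 27.0 against 46.1, 40.9 and 42.8 CPM, adjusted p = 0.11), Il15ra (11.6 and 7.27 against 23.4, 14.5 and 17.1 CPM, adjusted p = 0.181) and Il6st (48.6 and 50.9 against 75.2, 70.8 and 59.9 CPM, adjusted p = 0.202). Il10rb was at 332.1 and 310.8 against 323.6, 470.5 and 424.8 CPM, and Il6ra at 318.7 and 345.6 against 350.2, 351.1 and 389.7 CPM (adjusted p = 0.33 and 0.668). Il18 was at 102.5 and 107.5 against 117.6, 116.3 and 152.3 CPM, and Il10 at 6.98 and 7.50 against 17.7, 7.76 and 6.42 CPM (adjusted p = 0.361 and 0.579). Without pIVCL 1, 5 Kupffer members passed (Il6, Il10rb, Il16, Il18bp and Il1a), and the share of all genes called was then 9.41%. Here too the groups coincided with the batches, so ligation and batch cannot be told apart.

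The difference between the endothelial and Kupffer changes was tested for the 18 members measured in both. It passed for 2 of them, and 4.77% of the 9266 genes tested were called. Il15ra was at 14.0 and 15.1 CPM in sham endothelial cells and 12.1, 10.2 and 12.3 in pIVCL, so its change there was -0.34 while it was 0.90 in Kupffer cells, a difference of 1.25 ± 0.31 (SE, adjusted p = 0.0267 by edgeR). Il16 had changes of -0.14 and 0.66, a difference of 0.80 ± 0.17 (adjusted p = 0.0116). Within batch 2021.3 the differences were 1.54 and 0.77. Neither passed without sham 1 (adjusted p = 0.0973 and 0.147) or sham 2 (0.363 and 0.203), and Il15ra also did not pass without pIVCL 1 (0.0607) or pIVCL 2 (0.0599).

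**Figure D4:**
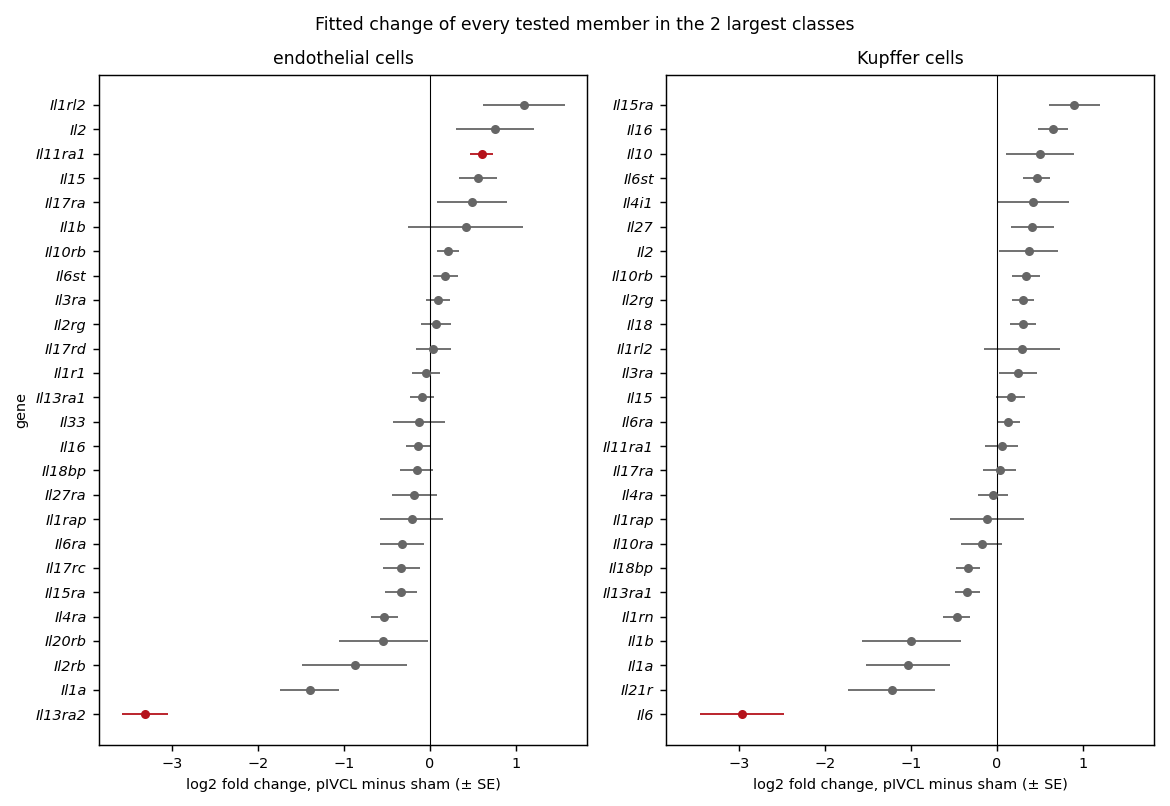
Fitted log2 fold change (pIVCL minus sham) with its SE for each of the 26 members tested in endothelial cells (left) and the 26 tested in Kupffer cells (right), red where the adjusted p was under 0.05. Il13ra2 (-3.32) and Il6 (-2.97) lie apart at the lower end, and Il11ra1 (0.60) is the 1 member in red on the positive side.

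In the class of stellate cells and fibroblasts, Il34 and Il6st rose and Il33 fell, and 13 members did not pass. Of 7688 genes, 2.19% were called (1.25% higher and 0.937% lower), with a median log2 fold change of 0.26 over the 16 members and 0 over all genes. Il34, a ligand of the CSF1 receptor, was at 93.0 and 64.4 CPM in sham and 253.0, 388.2 and 229.6 CPM in pIVCL, with no overlap (log2 fold change 1.87 ± 0.30, adjusted p = 0.00994). No overlap was seen for 34.9% of all genes tested in the class. Il33 was at 64.2 and 89.1 CPM in sham (29 and 36 molecules) and 15.4, 3.51 and 15.5 CPM in pIVCL (24, 4 and 9 molecules), a log2 fold change of -2.76 ± 0.46 (adjusted p = 0.0122). Il6st was at 555.9 and 448.1 against 944.0, 973.1 and 1222 CPM (1.05 ± 0.24, adjusted p = 0.0457).

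The class joins stellate cluster 7 and fibroblast cluster 23, and their proportions differed. Cluster 23 held 22 of 84 and 43 of 63 class cells in sham, and 31 of 297, 18 of 272 and 21 of 106 in pIVCL. In sham, Il34 was at 170.5 CPM in cluster 7 and 20.8 in cluster 23, and Il6st at 805.6 and 329.2. In cluster 7 alone the log2 fold change of Il33 was -3.11 (adjusted p = 0.00618), that of Il34 was 1.03 (0.067) and that of Il6st was 0.63 (0.215), so the last pair no longer passed.

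In that cluster Il33 was at 69.5 and 125.8 CPM in sham, from 17 and 12 molecules in 62 and 20 cells, and at 15.0, 2.69 and 11.7 in pIVCL. Within batch 2021.3 the class values were 1.69 for Il34, -2.29 for Il33 and 0.92 for Il6st. No member of this class passed without sham 2 (adjusted p = 0.0849 for Il34, 0.116 for Il33 and 0.296 for Il6st), and Il6st also did not pass without pIVCL 2 (0.102) or pIVCL 3 (0.124). Il11ra1 was at 237.0 and 274.8 against 240.8, 245.0 and 253.8 CPM, and Il1r1 at 194.9 and 190.6 against 141.3, 159.0 and 181.3 CPM (adjusted p = 0.922 and 0.584).

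In conventional dendritic cells, Il12b fell and 17 members did not pass. Of 6122 genes, 0.0817% were called (0.0327% higher and 0.049% lower), and 8.33% had an unadjusted p under 0.05, as had 3 members, all lower. In this class the median log2 fold change was -0.03 over the 18 members and -0.01 over all genes. Il12b, which encodes the p40 chain of IL-12 and IL-23, was at 258.1 and 172.0 CPM in sham (110 and 72 molecules) and 0, 15.1 and 17.4 CPM in pIVCL (0, 10 and 7 molecules). The 0 of pIVCL 1 allows a level of up to 9.91 CPM, for counting error only. The log2 fold change was -4.11 ± 0.45 (adjusted p = 0.0026 by edgeR), and it passed without each library in turn. Within batch 2021.3 the fitted value was -9.36, which rests on the 0 of pIVCL 1 and is no bound. The pooled sham level was 21.3-fold above the level that this 0 allows for counting error. That level does not cover the sampling of cells, as pIVCL 1 held 2 cells of the cluster that carried Il12b.

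The Il12b molecules of the class came from few cells, all in cluster 33, which expresses Ccr7 and Ccl22. In sham 1, 4 of 8 cells of this cluster carried it, with 49 molecules in the highest cell, and in sham 2 all 72 molecules were in 1 of 3 cells. In pIVCL, 0 of 2, 1 of 7 and 3 of 12 cells carried it, with at most 10 molecules in a cell. The difference between groups therefore rests on 5 sham cells. The upstream bases of Il12b (RefSeq, GRCm38.p6, chr11:44399813-44400062, plus strand), shown because it had the largest fold of all members that passed, held no match to the 4 motifs.
Il12b: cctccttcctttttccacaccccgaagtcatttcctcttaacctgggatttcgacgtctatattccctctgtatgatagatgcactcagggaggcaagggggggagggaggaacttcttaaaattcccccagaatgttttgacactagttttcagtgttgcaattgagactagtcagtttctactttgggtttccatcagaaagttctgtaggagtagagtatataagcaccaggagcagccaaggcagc

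Other dendritic-cell members were closer between groups. The most abundant were Il6ra (244.0 and 217.3 against 249.4, 335.2 and 327.6 CPM), Il2rg (157.6 to 159.5 against 108.7 to 172.9), Il6st (110.3 and 160.0 against 121.6 to 196.3) and Il10ra (100.9 and 109.9 against 99.7 to 143.0), with adjusted p-values of 0.662, 0.934, 0.928 and 0.863. Il1b was at 72.7 and 109.9 against 69.8, 37.8 and 52.1 CPM, and Il21r at 70.4 and 52.5 against 29.9, 21.1 and 49.6 CPM (adjusted p = 0.536 and 0.556).

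In monocytes, Il1b, Il1rn and Il6st fell, and 8 members did not pass. Of 4195 genes, 4.82% were called (3.81% lower in pIVCL), and the median log2 fold change was -0.30 over the 11 members and 0.01 over all genes. Il1rn was at 112.1 and 198.6 CPM in sham (22 molecules in each) and 0, 34.5 and 39.7 CPM in pIVCL (0, 8 and 11 molecules), a log2 fold change of -2.35 ± 0.54 (adjusted p = 0.00662). The 0 of pIVCL 1 allows up to 27.1 CPM, which is below both sham libraries. Il1b was at 305.7 and 234.7 against 150.4, 34.5 and 46.9 CPM (-2.04 ± 0.45, adjusted p = 0.00662), and Il6st at 203.8 and 270.8 against 141.5, 73.3 and 83.0 CPM (-1.32 ± 0.37, adjusted p = 0.0268).

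Markers of endothelial cells moved with these values, though endothelial cells themselves held much Il6st and little Il1b. The source of the Il1b in the monocyte class was not tested. Of all molecules in monocytes, 0.564 and 0.350% in sham came from the endothelial list, against 0.0515, 0.0223 and 0.00856% in pIVCL. Cells with over 0.1% endothelial-list molecules were 11 of 37 and 5 of 20 in sham and 1 of 27, 1 of 44 and 1 of 64 in pIVCL. Without them Il1b had 4 and 1 molecules in sham and 17, 8 and 13 in pIVCL, and Il6st had 9 and 0 in sham and 7, 17 and 23 in pIVCL. On that basis the sham levels of Il1b were 29.9 and 12.9 CPM against 157.3, 35.1 and 48.7 in pIVCL. Both sham libraries were then below all pIVCL libraries, on few molecules. Neither gene passed the filter on low counts.

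Il1rn kept 19 and 15 molecules in sham without those cells, and its log2 fold change was -2.48 (adjusted p = 0.00938). It did not pass without sham 2 (0.0891) or pIVCL 2 (0.0545). Among all monocytes, Il1b did not pass without pIVCL 2 (0.0723) or pIVCL 3 (0.0855), and Il6st without sham 1 (0.0544), sham 2 (0.27), pIVCL 2 (0.211) or pIVCL 3 (0.148). Within batch 2021.3 the changes of Il1b and Il6st were -0.88 and -0.74. For Il1rn the fitted value was -7.40, which rests on the 0 of pIVCL 1 and is no bound. The pooled sham level of Il1rn was 5.17-fold above the level that this 0 allows for counting error, and sham 1 alone was nearer to it. Il6ra was at 473.9 and 559.7 against 601.5, 608.3 and 894.9 CPM, Il17ra at 270.1 and 243.7 against 300.8, 539.3 and 357.2 CPM, and Il2rg at 234.4 and 325.0 against 132.7, 142.4 and 147.9 CPM (adjusted p = 0.487, 0.329 and 0.0855).

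No member passed in T cells, where 18 were tested and 0.0821% of 6088 genes were called (0.0493% higher), or in NK cells and ILC1, where 11 were tested and 0% of 2926 genes were called. At an unadjusted p under 0.05 the edgeR test gave 4 members in T cells, all higher in pIVCL, beside 9.77% of all genes, and 0 members in NK cells and ILC1, beside 240 genes (8.2%), and DESeq2 called 0 members in both classes. Il7r was at 535.6 and 564.5 against 812.5, 757.9 and 880.9 CPM in T cells (log2 fold change 0.57 ± 0.17, adjusted p = 0.226), and Il17ra at 111.2 and 137.4 against 169.8, 207.9 and 224.5 CPM (0.70 ± 0.23, adjusted p = 0.241). The groups did not overlap for either gene, as was so for 25% of all genes tested in T cells. Cluster 18, led by Tcf7, held 37 of 143 and 32 of 186 T cells in sham and 30 of 79, 52 of 117 and 82 of 157 in pIVCL. Il7r was at 1349 CPM in its sham cells and 1531 in its pIVCL cells, and at 336.7 and 292.3 in cluster 12.

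Il2rb was at 1975 and 2050 against 2066, 2063 and 1670 CPM in T cells and at 1875 and 2452 against 2795, 3142 and 2523 CPM in NK cells and ILC1. Il2rg was at 727.1 and 697.0 against 596.7, 729.1 and 750.6 CPM in T cells and 296.6 and 639.5 against 671.3, 691.2 and 669.9 CPM in NK cells and ILC1. Il18r1 overlapped between groups in both classes. The adjusted p-values were 0.941 and 0.708 for Il2rb and 0.972 and 0.711 for Il2rg.

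Genes that act with the interleukins under other symbols were counted from 6 lists. In endothelial cells, 1 of 10 measured JAK and STAT genes rose (Jak1, 1375 and 1461 against 2149, 2483 and 2400 CPM), as did 1 of 17 feedback genes (Socs2, 38.1 and 39.7 against 79.9, 73.9 and 114.0 CPM) and 1 of 8 genes of IL-17 receptor signalling (Cebpd, 118.7 and 168.0 against 398.3, 332.4 and 316.5 CPM). These are single genes, in a class where 3.23% of all genes tested rose. Of 14 partner chains and ligands, 2 rose and 3 fell, beside 3.23 and 3.08% of all endothelial genes. Tslp, an epithelial cytokine that signals through Il7r, rose by 2.76 on the log2 scale from 2.20 and 2.60 CPM (adjusted p = 0.00515). Lifr, the partner of gp130 for leukaemia inhibitory factor, fell from 536.3 and 700.2 to 276.9, 173.6 and 168.3 CPM (-1.58 ± 0.23, adjusted p = 0.00994), and Csf1, the other CSF1 receptor ligand, from 347.1 and 470.2 to 199.4, 179.4 and 145.5 CPM (adjusted p = 0.0068).

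Adam10, a protease that sheds receptors, fell (log2 fold change -0.51, adjusted p = 0.0335), and Osmr, the oncostatin M receptor, rose (0.53, adjusted p = 0.0371) and is named outside the rule after its values were seen. In Kupffer cells, where 0.278% of all genes rose, 1 of 11 partner genes did, Ebi3, which pairs with the Il27 product to form IL-27 (60.5 and 62.5 against 107.5, 127.2 and 151.9 CPM, log2 fold change 1.07 ± 0.16, adjusted p = 0.0185), while Il27 was at 10.7 and 14.5 against 17.1, 15.5 and 17.1 CPM (adjusted p = 0.448). In monocytes, where 3.81% of all genes fell, 2 of 9 partner genes did, Lifr (86.6 and 90.3 against 17.7, 4.31 and 14.4 CPM) and Csf1 (56.1 and 144.4 against 0, 8.63 and 14.4 CPM). Both were more abundant in endothelial cells, and the endothelial-list share of monocytes given above moved with them; its part was not tested. In stellate cells and fibroblasts, where 0.937% of all genes fell, 1 of 13 feedback genes did, Socs5 (log2 fold change -1.45, adjusted p = 0.0329). Neither the list on IL-1 and IL-18 receptor signalling nor that on the inflammasome had a gene that passed in any of the 7 classes.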

How the data were processed

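Single liver cells of 5 mouse libraries (2 sham, 3 pIVCL) had been captured on the BD Rhapsody platform. The authors deposited counts of molecules per cell and gene, which per the file headers came from the BD WTA Rhapsody pipeline 1.9.1 with error-corrected molecular identifiers and GRCm39. Neither label nor header names the aligner's settings or the gene annotation. Libraries held 12448260 to 30523228 molecules.

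Cells with at least 500 molecules, 200 genes and at most 25% mitochondrial molecules were kept (17188 of 19815; 29.9% of the cells of pIVCL 2 were over the mitochondrial limit). The 3% with the highest doublet scores (516 cells) were removed, since the caller's automatic threshold marked 14. Clustering used scanpy 1.11.5 and leidenalg 0.10.2, with 2000 variable genes, 30 components, 20 neighbours and resolution 1. A cluster was named when at least 3 markers, and 50% of a marker list, were in 25% of its cells and 2-fold enriched. Kupffer cells also needed Clec4f in 50% of cells, a limit set after the clusters were seen. It left cluster 15 unnamed, with 38 and 34 cells in sham and 53, 58 and 73 in pIVCL. In all, 9 clusters (1480 cells) stayed unnamed.

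Molecules summed by class and library were tested with edgeR 4.0.16 (TMM scaling, low-count filter, robust quasi-likelihood fit, R 4.3.3) and Benjamini-Hochberg adjustment over all genes of the class. The difference between the Kupffer and endothelial changes was tested as an interaction. The edgeR test of each class and the interaction were tried on simulated counts with a fixed dispersion and no batch difference. DESeq2 and the batch and replicate terms were not tried in this way. Alternatives were DESeq2 1.42.0, other scaling, no filter, stricter cells, doublets kept, batch and replicate terms and leaving out each library. Settings chosen after seeing the data were the single stellate and Timd4 clusters, the added mixed cluster, endothelial cells without large vessels and monocytes low in endothelial markers.

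Named members were those that passed in any class, the 4 most abundant in each tested class, and a list by function. Pathway genes were named where they passed, up to 4 a list and class. Members and lists were chosen with earlier results of these data known.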

Additional observations from a re-analysis of the deposited data

Results flagged for a closer look

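Il15ra, the receptor that presents IL-15, and Il16 differed between Kupffer and endothelial cells in their change after ligation. The Kupffer change minus the endothelial change was 1.25 for Il15ra and 0.804 for Il16 on the log2 scale, tested as an interaction by edgeR (adjusted p = 0.0267 and 0.0116). Both genes were higher in all 3 pIVCL libraries than in sham in Kupffer cells. In endothelial cells Il15ra was lower in all 3, and Il16 overlapped between groups. The call was kept under 3 of 7 alternatives for Il15ra and under 5 of 7 for Il16.

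Il6st, the gp130 gene, lay in opposite directions in different classes. Its log2 fold change was -1.324 in monocytes, 0.46 in Kupffer cells, where it did not pass, and 1.05 in stellate cells and fibroblasts. In the stellate cluster alone it was 0.63 and did not pass (adjusted p = 0.215 by edgeR). The groups did not overlap in each of these classes. Of all genes tested, 32.4% in monocytes, 32.4% in Kupffer cells and 34.9% in stellate cells and fibroblasts had no overlap. The differences between these classes were not tested, and the monocyte value was not retained in cells low in endothelial markers, where sham held 67.2 and 0 CPM and pIVCL 64.8, 74.6 and 86.1.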

How the results depend on the processing

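Of 152 values of passing genes under alternatives, 101 kept their call, 51 did not and 0 reversed. These leave out Il1b and Il6st in monocytes low in endothelial markers, which were not fitted there. In those cells both sham levels of Il1b were below every pIVCL library, opposite to the class, on few molecules. Il6st overlapped between the groups there. Il13ra2 in endothelial cells kept its call under all 14 alternatives and Il12b in dendritic cells under all 13. The Il12b alternatives rest largely on the same 5 sham cells, so the kept call does not cover the sampling of cells. The counts of passing members in dendritic cells, T cells, and NK cells and ILC1 were the same under every alternative. Among 1552 values of members that did not pass, 161 changed sign. The cause of these changes was not tested.

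The number of passing members in Kupffer cells, 1, became 0 with a replicate block, with batch as a term, with at least 1000 molecules and at most 10% mitochondrial, with the mixed cluster added and in the Timd4 cluster alone. That last fit left out pIVCL 3 (7 cells) and had 0 Il6 molecules in pIVCL 2, so it says nothing about stability. In endothelial cells 2 became 4 with no filter, 1 with a replicate block and 1 with batch as a term. In monocytes 3 became 1 with batch as a term, in batch 2021.3 alone, with stricter cells and in cells low in endothelial markers. In stellate cells and fibroblasts 3 became 0 with batch as a term and 1 in the stellate cluster alone. Without pIVCL 1 the groups coincided with the batches, so the counts of 5 in Kupffer and 7 in endothelial cells cannot be told apart from batch. Leaving out each library gave 0 to 5 in Kupffer cells, 1 to 7 in endothelial cells, 0 to 3 in monocytes, 0 to 3 in stellate cells and fibroblasts, and 0 to 2 for the Kupffer and endothelial difference.

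Same-numbered libraries correlated in their deviations from the group means between -0.146 and 0.081. With 2 sham libraries, and with pIVCL 1 and pIVCL 2 of different batches, this cannot decide whether the numbers pair the libraries. Under the replicate block Il6 in Kupffer cells was at -2.75 (adjusted p = 0.083, edgeR), Il11ra1 in endothelial cells at 0.51 (0.161), and Il6st at 0.93 in stellate cells and fibroblasts (0.284) and at -1.22 in monocytes (0.149).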

Other observations

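Members with few molecules were placed in B cells, which could not be compared between groups because sham 1 and sham 2 held 17 and 15 of them. Il9r, the IL-9 receptor, had 66 of its 75 molecules there and Il5ra, the IL-5 receptor, 35 of 45. Of these, 55 and 25 were in pIVCL 3, which held 484 of the 649 B cells. Il17d had 69 of 89 molecules in stellate cells and fibroblasts. Il17re, a receptor of IL-17C, was at 88.8 CPM in mesothelial cells and 73.5 in cholangiocytes, and its ligand gene Il17c was at 0 in all libraries. Mesothelial cells held Il18r1 at 283.8 and 375.7 CPM in sham and 146.2, 192.3 and 112.7 in pIVCL, from 15 to 30 cells a library, and this difference was not tested.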
